A study of Rattus norvegicus with 74 samples.

Results

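The miR-146 family of the rat kidney comprises 2 microRNAs (miRNAs), miR-146a and miR-146b, which are read here by name from miRNA microarrays. Arms of miR-146a, miR-146b and miR-155 were sought by name, and those detected on at least 1 array were kept. The arms kept are rno-miR-146a-5p and rno-miR-146b-5p, written below without the species prefix. rno-miR-155-5p was also sought and was not analysed here. Of the 4 named arms of miR-146, the array detected miR-146a-5p and miR-146b-5p on 74 of 74 arrays and their passenger arms miR-146a-3p and miR-146b-3p on 0 of 74. The 2 detected arms are among 311 miRNAs detected on any array, out of 677 on the design. The arms were kept by name and detection, without use of differences between groups. The members and the lists used below were, however, chosen with earlier results of these data known.

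The samples were whole kidneys of untreated F344 rats, an inbred strain, of both sexes. They were taken from young animals of 2, 5, 6 and 8 weeks, from adults of 15 and 21 weeks, and from aged animals of 78 weeks or 104 weeks. Each kidney was ground whole, so that the RNA is that of all its cell types together, and 1 array was run per animal. The 16 groups of one age and sex held 4 or 5 animals, 36 females and 38 males in all, and females were not staged for the estrous cycle. The questions were how the miRNAs change over the life span and where the sexes differ.

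MicroRNAs guide silencing complexes to messenger RNAs, mainly through the seed at their 5′ end. Transcription of miR-146a is induced by NF-κB downstream of Toll-like and interleukin-1 receptors, and miR-146 in turn represses Irak1 and Traf6, adaptors of the same receptors, so that it is known as a negative feedback on innate inflammation. miR-223, the reference used beside the family, is made mainly in neutrophils, monocytes and macrophages. In a whole-kidney extract, more cells of a type and more of a miRNA per cell cannot be told apart.

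The mature sequences of the detected arms are shown because the arms share a seed and are nearly the same molecule, but come from 2 genes. Capitals mark the seed, bases 2 to 8, and the third sequence is the myeloid reference. Sequences and positions are from RefSeq, build GRCr8.
miR-146a-5p: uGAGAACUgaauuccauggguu
miR-146b-5p: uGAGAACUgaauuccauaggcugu
miR-223-3p: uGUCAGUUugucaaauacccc

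The 2 arms had the same first 17 bases. Over the 22 bases of miR-146a-5p, counted from 1 at the 5′ end, they differed by 2 substitutions, G18A and U21C, with the base of miR-146a-5p first. miR-146b-5p was longer by 2 bases at its 3′ end. Of 693 mature rat miRNAs in the RefSeq table, the seed GAGAACU occurred in 2, which are these arms. Reads of one arm by the other's probes were not tested, and each arm had 2 probes of 10 spots each.

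The hairpins lie on different chromosomes. Mir146a is at chr10:28349996-28350090 on the minus strand, inside the extent of the long non-coding RNA gene LOC134480673. Its nearest protein-coding gene without overlap was Pttg1, 44850 bases away. Mir146b is at chr1:255144860-255144947 on the plus strand, inside the extent of the protein-coding gene C1h10orf95, and 30211 bases from Nfkb2, which encodes an NF-κB subunit precursor. Mir223 is at chrX:65151383-65151492 on the plus strand, inside the extent of the long non-coding RNA gene LOC120099372. The table used gives gene extents and not exons, so exonic or intronic position was not analysed here.

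Values are normalized intensities, the scanner's total signal of a miRNA divided by the 75th percentile of the 311 expressed miRNAs on that array. An array detected between 190 and 264 miRNAs, and 0 spots were saturated. The arrays lay on 10 slides, with males and females on the same slides. The 4 young ages shared 5 slides and the 4 older ages shared another 5, except that 1 female array of 15 weeks lay on a slide of the young. Changes from 8 to 15 weeks, and any other difference between a young and an older age, can therefore not be told apart from slides. Age tests, spans and orders of groups over all 8 ages include such differences. The kidney tubule miRNAs miR-192-5p, miR-194-5p and miR-204-5p were detected in all groups at 21, 78 and 104 weeks, and the hepatocyte miRNA miR-122-5p reached at most 0.672 in these groups. In young males it ran higher in places, up to 23.6 at 2 weeks, 3.91 at 5 weeks and 5.82 at 6 weeks. A separate deposited table of normalized values had 74 columns, and the values of only 5 came from the sample in the column's name. The other 69 columns matched a different sample's array, and 8 of the 74 matched an array of the right group. Groups here follow the scanner file of each sample. The within-group SD of miR-146a-5p was 0.11 on the log2 scale by the scanner files and 0.18 by the table's column names, and that of miR-146b-5p was 0.21 and 0.24.

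The raw signal of miR-146a-5p ranged from 349 to 1726 and that of miR-146b-5p from 14.6 to 142. Probes differ in response, so that the arms are compared here by their changes and not by their levels. The lowest signal of miR-146b-5p was still 10.5 times the lowest signal that the scanner called detected on any array. The scanner's own error of a signal was 7.59 to 7.86% for miR-146a-5p and 7.42 to 15.0% for miR-146b-5p.

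Both arms changed with age in both sexes, and both were highest in the old males. miR-146a-5p rose between 2 and 8 weeks, had lower means at 15 weeks and had its highest mean at 104 weeks in both sexes. miR-146b-5p stayed near one level in young males, and its called changes in males came after 21 weeks. In females it rose by 8 weeks, had lower means at 15 and 21 weeks, mostly on other slides, and had no called change after 21 weeks. A change or difference is called where the adjusted p of limma, over all 311 expressed miRNAs, was under 0.05 and the fold was at least 1.5.

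**Figure D1:**
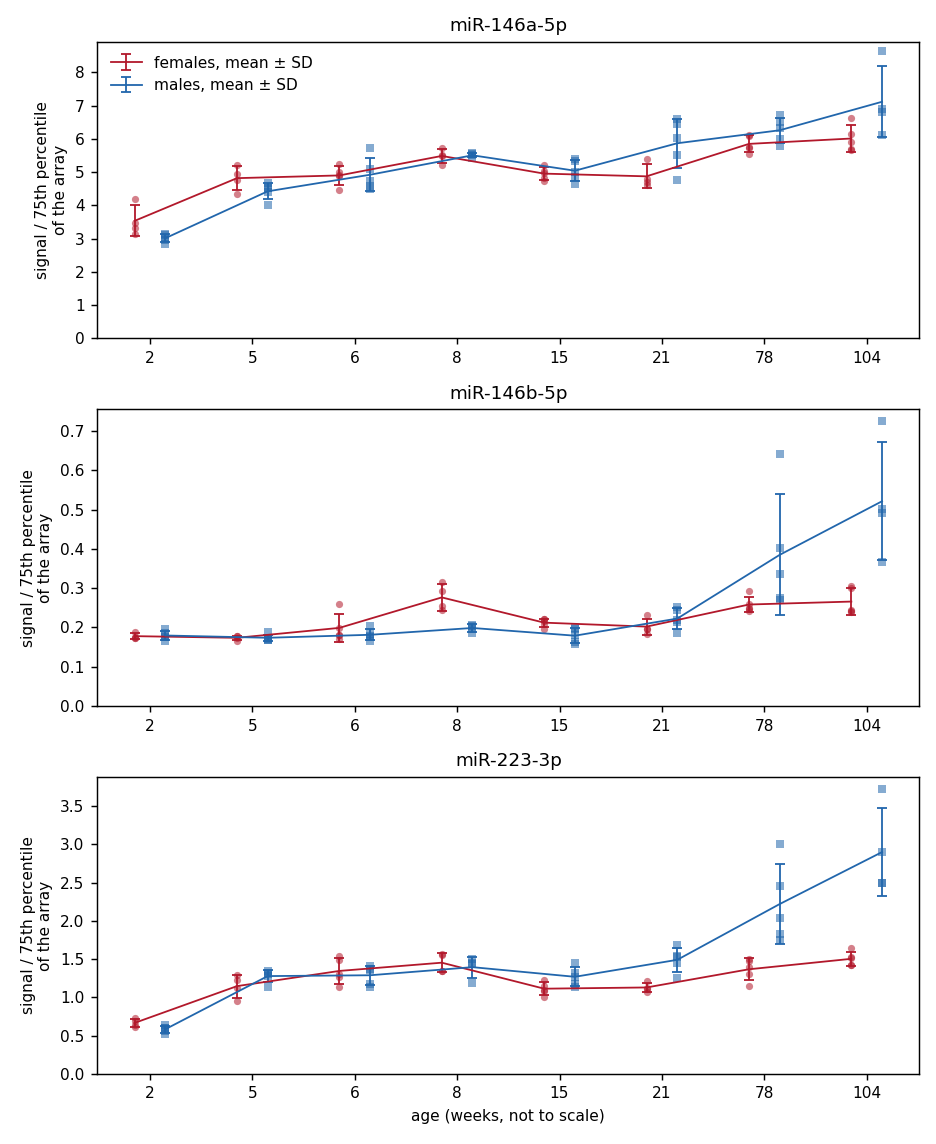
Normalized intensity (signal divided by the array's 75th percentile, no unit) of miR-146a-5p, miR-146b-5p and miR-223-3p against age in weeks, with 1 point per animal, females in red and males in blue, and lines through the group means with SD bars. miR-146a-5p has its lowest means, 3.53 in females and 3.01 in males, at 2 weeks, while miR-146b-5p in males stays between 0.174 and 0.223 until 21 weeks and has a mean of 0.521 at 104 weeks.

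The first rise of miR-146a-5p took place in the young kidney. At 2 weeks the 4 females had normalized intensities of 4.20, 3.48, 3.32 and 3.13, and the 5 males 3.12, 2.97, 3.01, 3.13 and 2.82. At 8 weeks the 4 females stood at 5.49, 5.72, 5.52 and 5.20 and the 4 males at 5.51, 5.56, 5.41 and 5.53. All animals of 8 weeks were above all of 2 weeks in each sex, where 26.7% of expressed miRNAs in females and 39.5% in males had ages without overlap in either direction.

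The rise of miR-146a-5p from 2 to 8 weeks was 0.64 ± 0.08 (SE, log2) in females, a fold of 1.56, and 0.87 ± 0.08 in males, a fold of 1.83. Both were called, with limma's adjusted p at 3.85e-10 and 1.43e-15. Over all expressed miRNAs, 21.2% were called in females and 29.9% in males in the same comparison. The means at 5 weeks, 4.82 ± 0.36 in 4 females and 4.42 ± 0.24 in 5 males (SD), and at 6 weeks, 4.90 ± 0.28 and 4.92 ± 0.50 in 5 animals each, lay between those of 2 and 8 weeks. The size in females depended on the scaling: scaled by the percentile of those miRNAs that every array detected, it was 0.47 and below the fold threshold. With normexp, a model-based background correction, it was 0.48 with an adjusted p of 0.0789, or 0.218 without that method's offset. The male rise was called under these settings too.

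Markers of other cell types moved over the same weeks. The summed normalized intensity of 3 kidney tubule miRNAs was 10.6 to 13.1 in females and 8.14 to 9.40 in males at 2 weeks, and 17.2 to 20.4 and 21.6 to 22.4 at 8 weeks, with 1 of the 3 called higher in females and 3 in males. That of 3 mesenchymal miRNAs was 15.8 to 18.3 in females and 18.2 to 20.1 in males at 2 weeks, and 10.2 to 11.0 and 9.81 to 10.2 at 8 weeks, with all 3 called lower in each sex. That of 4 leukocyte miRNAs was 1.98 to 2.11 in females and 1.67 to 1.84 in males at 2 weeks, and 2.66 to 3.30 and 2.58 to 3.34 at 8 weeks, with 2 of the 4 called higher in each sex. miR-122-5p ran from 0.397 to 23.6 in the males of 2 weeks and was called lower in those of 8 weeks, by -3.97 (log2) with an adjusted p of 9.40e-04. Over all expressed miRNAs from 2 to 8 weeks, 8.68% were called higher and 12.5% lower in females, and 15.1% and 14.8% in males. The part of these cell types in the early rise was not tested.

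At 15 weeks miR-146a-5p averaged 4.95 ± 0.19 in females and 5.04 ± 0.31 in males (SD, n = 5 each). The change from 8 weeks was -0.15 ± 0.08 (SE, log2) in females, with limma's adjusted p at 0.262, and -0.13 ± 0.08 in males, with 0.465. All males of 15 weeks were nonetheless below all of 8 weeks, as without overlap for 9.00% of expressed miRNAs, while the females overlapped. From 15 to 21 weeks the change was 0.21 ± 0.07 in males, with an adjusted p of 0.0673, and -0.03 ± 0.08 in females. The ages overlapped in both sexes. The second, smaller rise of miR-146a-5p was measured from 21 weeks, so that this male step lies outside it. In the 4 females of 21 weeks miR-146a-5p was 4.61, 5.40, 4.70 and 4.78, and in the 5 females of 104 weeks 6.62, 5.66, 6.16, 5.90 and 5.71. The 5 males of 21 weeks had 6.59, 4.76, 6.44, 5.53 and 6.01, and the 4 males of 104 weeks 6.11, 8.63, 6.90 and 6.82. The female ages did not overlap, as for 9.32% of expressed miRNAs, whereas 2 of the 5 males of 21 weeks exceeded the lowest male of 104 weeks.

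The change of miR-146a-5p from 21 to 104 weeks was 0.30 ± 0.08 (SE, log2) in females, with limma's adjusted p at 0.00489, and 0.28 ± 0.08 in males, with 0.00265. These folds of 1.23 and 1.21 were under 1.5, so neither was called, although both passed the p threshold. Called in this comparison were 2.89% of all expressed miRNAs in females and 14.8% in males. The male change rested in part on 1 animal: without replicate 2 of the 104-week males it was 0.18 with an adjusted p of 0.0695. It also depended on the scaling, being 0.59 and called when scaled by the miRNAs that every array detected. In females most of the change was present at 78 weeks, where the 5 animals had 6.10, 5.75, 5.72, 6.12 and 5.55. The difference to 21 weeks there was 0.27 ± 0.08, with an adjusted p of 0.0156 and no overlap, where 4.18% of expressed miRNAs were called and 14.5% did not overlap. In males it was 0.10 ± 0.07, with an adjusted p of 0.317.

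The late rise of miR-146b-5p in males was the largest change of either arm. Before it, from 15 to 21 weeks, the change in males was 0.31 ± 0.13 (SE, log2), with limma's adjusted p at 0.153, and the ages overlapped. The 5 males of 21 weeks had 0.251, 0.186, 0.243, 0.219 and 0.215. At 78 weeks the 5 males had 0.276, 0.335, 0.269, 0.401 and 0.643, and at 104 weeks the 4 males had 0.501, 0.727, 0.366 and 0.491. Every male of 78 or 104 weeks was above every male of 21 weeks, where 13.2% and 22.5% of expressed miRNAs had no overlap at the respective age, and the spread widened, with a coefficient of variation of 11.6% at 21 weeks, 40.0% at 78 weeks and 28.8% at 104 weeks.

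From 21 to 104 weeks miR-146b-5p rose in males by 1.19 ± 0.14 (SE, log2), a fold of 2.29, with limma's adjusted p at 2.20e-10. Each probe alone gave a like value, 1.197 for the first and 1.19 for the second, with no overlap of the ages for either. With normexp background correction the rise was 0.51, below the fold threshold. From 21 to 78 weeks the rise was 0.72 ± 0.13, a fold of 1.65 with an adjusted p of 1.67e-05, where 10.9% of expressed miRNAs were called. It rested in part on 1 animal: without replicate 6 of the 78-week males it was 0.51 and below the fold threshold. With normexp background correction it was 0.30 with an adjusted p of 0.301, and without the offset 0.57 with 0.199. The step from 78 to 104 weeks, 0.47 ± 0.14 with an adjusted p of 0.0384, was under the fold threshold, and the groups overlapped. Of expressed miRNAs, 0.965% were called there. It was 0.63 and called without replicate 3 of the 104-week males, 0.68 and called without replicate 6 of the 78-week males, and 0.30 with an adjusted p of 0.324 without replicate 2 of the 104-week males.

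In females miR-146b-5p had 0.184, 0.231, 0.197 and 0.196 at 21 weeks and 0.301, 0.238, 0.243, 0.306 and 0.241 at 104 weeks. The ages did not overlap, as for 9.32% of expressed miRNAs. The difference of 0.39 ± 0.14 (SE, log2) did not pass the limma test, with an adjusted p of 0.0948, and its 95% interval ran from 0.12 to 0.67. The females of 78 weeks lay in the same range, with 0.250, 0.248, 0.259, 0.292 and 0.242.

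Among the young ages, miR-146b-5p had its highest mean in females of 8 weeks. At 2 weeks the 4 females had 0.175, 0.190, 0.173 and 0.173 and the 5 males 0.175, 0.195, 0.186, 0.175 and 0.167. At 8 weeks the 4 females had 0.243, 0.316, 0.292 and 0.255 and the 4 males 0.197, 0.205, 0.207 and 0.186. At 15 weeks the 5 females stood at 0.221, 0.195, 0.220, 0.209 and 0.216, all below the females of 8 weeks, as without overlap for 11.6% of expressed miRNAs, and the 5 males at 0.159, 0.197, 0.198, 0.180 and 0.162.

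The rise from 2 to 8 weeks in females was 0.63 ± 0.15 (SE, log2), a fold of 1.55, with limma's adjusted p at 2.89e-04. In males it was 0.15 ± 0.14 with an adjusted p of 0.446, and the ages overlapped. The female rise was near the fold threshold: it was 0.56 and not called without replicate 2 of the 8-week females, 0.58 with slide as a fixed block, and 0.46 when scaled by the miRNAs that every array detected. With normexp background correction it was 0.13 with an adjusted p of 0.998, and without the offset 0.34 with 0.680. The difference from 8 to 15 weeks in females, -0.38 ± 0.14, had an adjusted p of 0.0871 and cannot be told apart from slides.

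Over all 8 ages, limma's moderated F test gave an adjusted p of 8.41e-10 in females and 4.50e-13 in males for miR-146a-5p, and of 5.39e-07 and 6.48e-10 for miR-146b-5p. All were called, as were 36.7% of expressed miRNAs in females and 45.3% in males. These age tests span both sets of slides, so that age and slides are mixed in them. The age means of miR-146a-5p spanned a fold of 1.71 in females and 2.35 in males, and those of miR-146b-5p a fold of 1.58 and 2.92. Age profiles differed between the sexes for both arms, with adjusted p of the age by sex interaction at 0.00180 for miR-146a-5p and 5.04e-07 for miR-146b-5p, where 27.7% of expressed miRNAs were called. For miR-146a-5p the interaction did not pass within the ages of 2 to 8 weeks alone (0.454) or 15 to 104 weeks alone (0.282). With normexp background correction the adjusted p of the interaction was 0.692 for miR-146a-5p and 0.358 for miR-146b-5p, and that of the age effect in females was 0.621 for miR-146b-5p.

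Ordered by group mean, miR-146a-5p was highest in males of 104 weeks (7.11), then in males of 78 weeks (6.26), females of 104 weeks (6.01), males of 21 weeks (5.87) and females of 78 weeks (5.85). It was lowest in females (3.53) and males (3.01) of 2 weeks. The ranges of neighbours in this order overlapped throughout, except between the sexes at 2 weeks. For miR-146b-5p the order began with males of 104 weeks (0.521), males of 78 weeks (0.385) and females of 8 weeks (0.277), and ended with males and females of 5 weeks (0.174 each). All neighbours in that order overlapped.

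The sexes were compared at each age as male minus female. The share of expressed miRNAs called was 3.86% at 2 weeks, 0% at 5, 0.322% at 6, 1.29% at 8, 3.54% at 15, 4.82% at 21, 6.75% at 78 and 6.11% at 104 weeks. For miR-146a-5p limma called no sex difference at any of the 8 ages, and 3 of them, 2, 21 and 104 weeks, had an unadjusted p under 0.05, as did 20.9%, 21.2% and 29.9% of expressed miRNAs at those ages. At 2 weeks males were lower by -0.22 ± 0.08 (SE, log2), with limma's adjusted p at 0.0420, and the highest male and the lowest female both stood at 3.13, without overlap, as for 8.04% of expressed miRNAs. At 21 weeks males were higher by 0.26 ± 0.08, with an adjusted p of 0.0135, and at 104 weeks by 0.23 ± 0.08, with 0.0176. In both cases the groups overlapped and the folds, 1.199 and 1.18, were under 1.5. Without replicate 2 of the 104-week males the last value was 0.14, with an adjusted p of 0.228. At 78 weeks, where the 5 males had 5.77, 6.71, 6.31, 6.49 and 6.00, the difference was 0.10 with a 95% interval from -0.04 to 0.24.

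For miR-146b-5p the direction of the sex difference turned with age. At 8 weeks all 4 males were below all 4 females, by -0.47 ± 0.15 (SE, log2), with limma's adjusted p at 0.0507, just short of the threshold. Groups that did not overlap were seen for 11.9% of expressed miRNAs at this age. At 15 weeks males were also lower, by -0.25 ± 0.13, with an adjusted p of 0.273. At 78 weeks males were higher by 0.50 ± 0.13, a fold of 1.41 with an adjusted p of 0.00333, and the groups overlapped. For miR-146b-5p at 78 weeks, the value without male replicate 6 was 0.29 with an adjusted p of 0.0755, and without male replicate 2 or 4 it was 0.60 or 0.61 and called. Processing moved it further, from 0.088 with normexp background correction to 0.74 when scaled by the whole design's 75th percentile. With the latter it was called, as with quantile normalization (0.62) and with the percentile of the miRNAs that every array detected (0.61).

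At 104 weeks the sex difference of miR-146b-5p was called. All 4 males, from 0.366 to 0.727, were above all 5 females, from 0.238 to 0.306. Males were higher by 0.94 ± 0.14 (SE, log2), a fold of 1.92, with limma's adjusted p at 4.43e-07. At this age 6.11% of expressed miRNAs were called, 3.22% higher in males, and 19.3% had no overlap. Its probes gave 0.99 and 0.91, each without overlap and each with a two-sided exact permutation p of 0.00794, the smallest that 4 against 5 animals allow. Leaving out each animal in turn gave 0.76 to 1.09, called each time. With normexp background correction it was 0.38 with an adjusted p of 0.185. That correction adds an offset of 50 to each spot, whereas the median net spot signal of the 2 probes was 18.2 and 31.7. Without the offset the difference was 0.77 with an adjusted p of 0.0632.

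**Figure D2:**
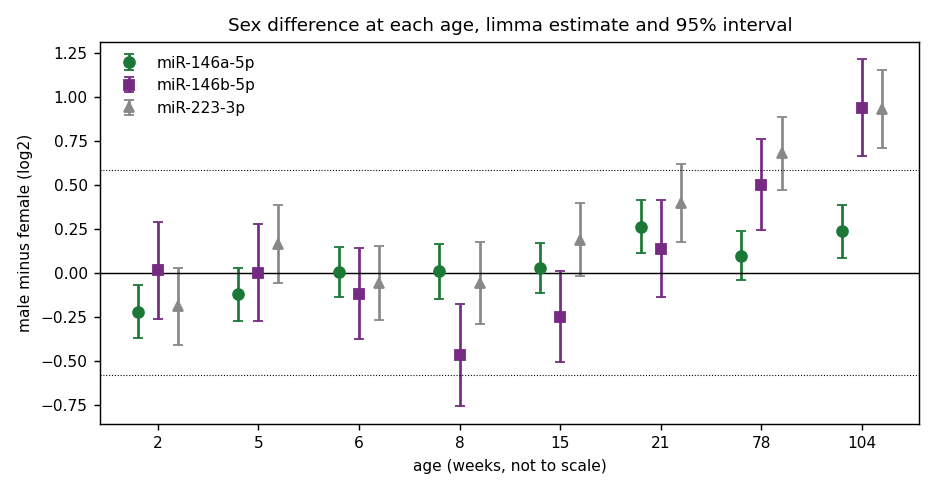
Male minus female difference in log2 normalized intensity at each age, with limma's estimate as a point and its 95% interval as a bar, for miR-146a-5p (circles), miR-146b-5p (squares) and miR-223-3p (triangles). Dotted lines mark the fold of 1.5 in either direction. miR-146b-5p runs from -0.47 at 8 weeks to 0.94 at 104 weeks, while miR-146a-5p stays between -0.22 and 0.26.

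The myeloid reference miR-223-3p, detected on 74 of 74 arrays, was set beside both arms. From 2 to 8 weeks it rose by 1.13 ± 0.12 (SE, log2) in females and 1.26 ± 0.11 in males, both called, with limma's adjusted p at 2.58e-12 and 2.73e-15. At 21 weeks the 4 females had 1.07, 1.22, 1.11 and 1.12 and the 5 males 1.53, 1.25, 1.69, 1.52 and 1.45. At 104 weeks the 5 females had 1.64, 1.43, 1.51, 1.52 and 1.42 and the 4 males 2.50, 3.72, 2.49 and 2.89. Males were above females without overlap at both ages, and at 78 weeks, where the males ranged from 1.75 to 3.01 and the females from 1.15 to 1.498. Of expressed miRNAs, 10.3% had no overlap between the sexes at 21 weeks and 9.00% at 78 weeks.

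The sex difference of miR-223-3p was 0.68 ± 0.10 (SE, log2) at 78 weeks and 0.93 ± 0.11 at 104 weeks, both called, with limma's adjusted p at 1.53e-06 and 3.56e-09. The first of them was 0.56 and below the fold threshold without replicate 6 of the 78-week males, and 0.54 with normexp background correction. From 21 to 104 weeks it rose in males by 0.95 ± 0.11 with an adjusted p of 2.77e-10, and in females the difference was 0.41 ± 0.11 with 0.0110, under the fold threshold. The late values of miR-146b-5p in males, 1.19 over age and 0.94 between the sexes, stood beside these, and those of miR-146a-5p, 0.28 and 0.23, were smaller.

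That contrast was tested on the log2 ratio of an arm to miR-223-3p within each array, with two-sided exact permutation tests over animals and Benjamini-Hochberg adjustment over 12 comparisons. The ratio takes out the array's scaling, since both signals share it. For miR-146a-5p, the log2 ratio at 104 weeks was 2.00 ± 0.03 (SD, n = 5) in females and 1.30 ± 0.12 (n = 4) in males, a difference of -0.70 with no overlap and an exact p of 0.00794 (adjusted 0.0159). At 78 weeks the difference was -0.58, with the same exact p and no overlap. From 21 to 104 weeks it fell by 0.67 in males and by 0.11 in females, each without overlap and with the same exact p. miR-146a-5p rose by less than miR-223-3p in both sexes. miR-223-3p was itself called higher in males at 78 and 104 weeks, and in males at 104 than at 21 weeks. An unchanged miRNA would therefore also have a lower ratio to it in those comparisons. The share of expressed miRNAs with such a ratio was not analysed here.

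For miR-146b-5p the log2 ratio to miR-223-3p at 104 weeks was -2.50 ± 0.21 (SD, n = 4) in males and -2.51 ± 0.13 (n = 5) in females, a difference of 0.01 with an exact p of 0.944. At 78 weeks it was -0.18, with an exact p of 0.143. The change from 21 to 104 weeks was 0.25 in males, with an exact p of 0.0556 (adjusted 0.0952), and -0.02 in females, with an exact p of 0.778. With 4 or 5 animals a group, none of these differences was detectable, and similar movement of the 2 miRNAs is not shown by that.

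The arms themselves moved apart in old males. The log2 ratio of miR-146b-5p to miR-146a-5p at 104 weeks was -3.80 ± 0.31 (SD, n = 4) in males and -4.50 ± 0.15 (n = 5) in females, 0.70 higher in males without overlap and with an exact permutation p of 0.00794 (adjusted 0.0159). From 21 to 104 weeks it rose by 0.92 in males, again without overlap and with the same exact p. In females the change was 0.09 with an exact p of 0.333, and at 78 weeks the sexes differed by 0.40 with an exact p of 0.0714.

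**Figure D3:**
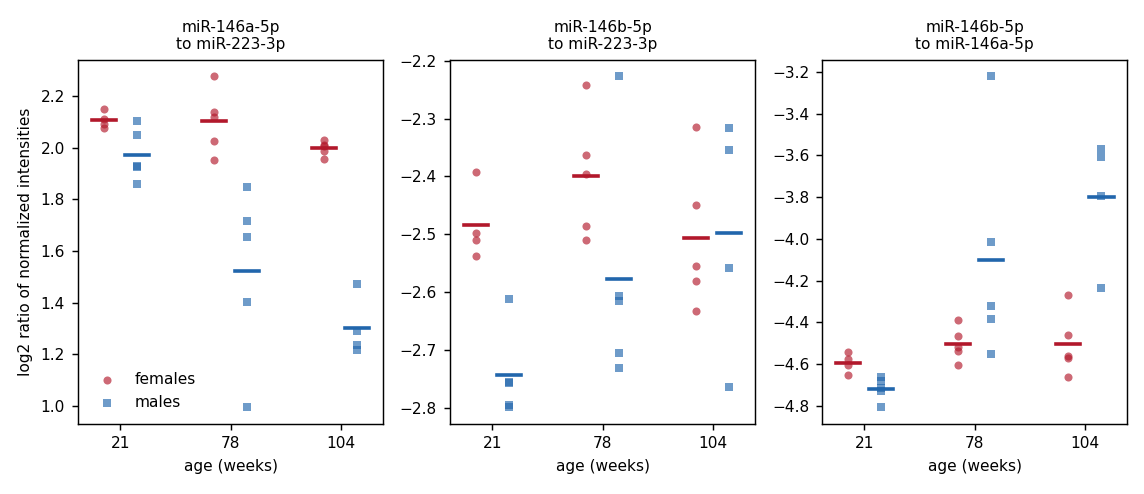
Log2 ratio of miR-146a-5p to miR-223-3p (left), miR-146b-5p to miR-223-3p (middle) and miR-146b-5p to miR-146a-5p (right) at 21, 78 and 104 weeks, with 1 point per animal and a bar at the group mean, females in red and males in blue. In the left panel the males fall from 1.97 to 1.30 and in the right panel they rise from -4.72 to -3.80, while the sexes overlap at 104 weeks in the middle panel; the vertical axes differ between panels.

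Animals of one group were then compared with each other, by each animal's deviation from its group mean over 74 arrays. miR-146b-5p and miR-223-3p deviated together, with Pearson's r at 0.69 and Spearman's rho at 0.58 (permutation p within groups 1e-05, the smallest that 100000 resamples can give, and 3e-05; adjusted over 3 relations 3e-05 and 9e-05). Without the 2 arrays farthest out in miR-223-3p, replicate 2 of the 104-week males and replicate 6 of the 78-week males, r was 0.56. With slide means also removed it was 0.70, and without all 9 males of 78 and 104 weeks it was 0.44 with a permutation p of 0.00124.

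For miR-146a-5p and miR-223-3p, r was 0.28 and rho 0.25 (permutation p 0.0479 and 0.0618; adjusted 0.0479 and 0.0618). Without the 2 farthest arrays r was 0.25 with a permutation p of 0.0598, so that passing 0.05 rested on those arrays, and without the old males it was 0.20 with a permutation p of 0.161. With slide means also removed r was 0.28 and rho 0.29, with permutation p of 0.0356 and 0.0298. Between the arms r was 0.38 and rho 0.43 (permutation p 0.00561 and 0.00075; adjusted 0.00841 and 0.00112). Without the 2 farthest arrays r was 0.26 with an adjusted permutation p of 0.0598, and rho 0.38 with 0.00516. With slide means also removed r was 0.28 with an adjusted permutation p of 0.0186, and without the old males 0.49 with 3.30e-04. The permutations kept animals within their groups. Both deviations of an array share its scaling, and the part of this in the correlations was not tested.

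**Figure D4:**
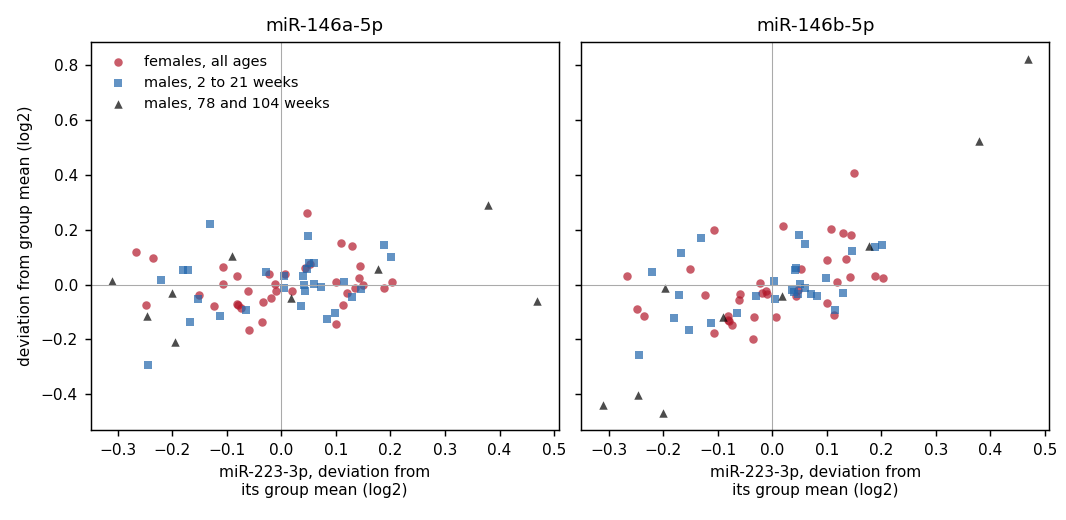
Deviation of each animal from its group mean (log2 normalized intensity) for miR-146a-5p (left) and miR-146b-5p (right) against that of miR-223-3p, with 1 point per animal (74 arrays), females as circles, males of 2 to 21 weeks as squares and males of 78 and 104 weeks as triangles. The points of miR-146b-5p spread along a rising band, with r at 0.69, and those of miR-146a-5p much less, with r at 0.28.

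The animals with the highest values in the old male groups were partly shared. Replicate 2 of the 104-week males had the highest miR-146a-5p (8.63), miR-146b-5p (0.727) and miR-223-3p (3.72) of its group. Replicate 6 of the 78-week males had the highest miR-146b-5p (0.643) and miR-223-3p (3.01) but not the highest miR-146a-5p (6.00). Over the 16 groups, the animal highest in miR-146b-5p was also highest in miR-223-3p in 7 groups and highest in miR-146a-5p in 6. The animal highest in miR-146a-5p was highest in miR-223-3p in 5. In groups of 4 or 5 animals some matches arise by chance, and these counts were not tested.

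The miRNAs whose 16 group means ran most like those of each arm were found among 227 others detected on at least 50% of arrays, by Pearson's r on the log2 scale, as a description. For miR-146a-5p these were miR-223-3p (0.94), miR-7a-5p (0.92) and miR-29a-3p (0.92), and miR-146b-5p stood in place 26 (0.73). For miR-146b-5p they were miR-21-5p (0.94), miR-132-3p (0.80) and miR-142-3p (0.79), followed by miR-223-3p in place 4, with miR-146a-5p in place 7. The group means come from the same arrays and share their scaling.

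A list of miRNAs induced or repressed by endotoxin or NF-κB signalling gives the setting of the family. Of 8 named, 6 were expressed, and miR-147 and miR-187-3p were not detected in these groups. At 104 weeks 2 of the 6 were called higher in males, miR-21-5p, which is induced in injured and inflamed tissue, by 0.59 and miR-132-3p by 1.40. Over all expressed miRNAs, 3.22% were called higher in males at this age. The signal of miR-132-3p was near the floor set for undetected miRNAs, -5.87 in log2, with a mean of -3.41 in males and -4.82 in females. The same 2 were called higher in males from 21 to 104 weeks, by 1.02 and 1.48, and miR-9a-5p was lower, by -0.69. In that comparison 6.11% of expressed miRNAs were called higher and 8.68% lower. The list's median difference was -0.03 between the sexes at 104 weeks, against -0.02 over all expressed miRNAs, and -0.28 over age in males, against -0.05. As the list holds both induced and repressed miRNAs, its median cannot show whether the response as a whole shifted. In females limma called 0 of 6 from 21 to 104 weeks, and 2.89% of all expressed miRNAs. At an unadjusted p under 0.05, 2 of the 6 passed, as did 12.5% of all expressed miRNAs.

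Markers of other cell types moved in the same comparisons. All 4 leukocyte miRNAs listed, miR-223-3p, miR-142-3p, miR-142-5p and miR-150-5p, were called higher in males at 104 weeks, as were 3.22% of expressed miRNAs. All 4 were also called higher in males at 104 than at 21 weeks, where 6.11% of expressed miRNAs were called higher and 8.68% lower. Their summed normalized intensity was 5.56 to 7.67 in males and 3.32 to 3.55 in females at 104 weeks, and 3.07 to 3.70 and 2.49 to 2.95 at 21 weeks. In females 1 of the 4, miR-142-3p, was called higher at 104 than at 21 weeks, as were 0.965% of expressed miRNAs. miR-142-5p was detected on none of the female arrays of 21 or 78 weeks.

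From 21 to 104 weeks, 6.11% of expressed miRNAs were called higher and 8.68% lower in males, and 0.965% and 1.93% in females. All 3 tubule miRNAs were called lower in males at 104 than at 21 weeks, with a summed intensity of 13.3 to 15.98 against 23.8 to 26.9, and in females the sum was 21.4 to 23.3 against 20.9 to 24.1. Of 3 mesenchymal miRNAs, miR-199a-5p and miR-214-3p were called higher in males over the same ages, and the list's sum was 10.9 to 13.3 against 7.60 to 9.24. Of 2 erythroid miRNAs on the array, miR-451-5p was called higher at 104 weeks in each sex, and the list's sum was 2.51 to 4.43 in males and 1.82 to 3.72 in females. For the 2 endothelial and 2 smooth muscle miRNAs, limma called 0 between the sexes at 104 weeks or from 21 to 104 weeks in either sex. At an unadjusted p under 0.05, 1 endothelial miRNA passed between the sexes and 1 over age in males, as did 29.9% and 38.3% of all expressed miRNAs. Between the sexes at 104 weeks, the tubule miRNA miR-192-5p was called lower in males, by -0.65 with limma's adjusted p at 1.66e-08. The mesenchymal miR-199a-5p was called higher, by 0.66 with 3.29e-06. The other tubule and mesenchymal miRNAs listed were not called there. Of expressed miRNAs, 3.22% were called higher and 2.89% lower in males at that age. miR-1-3p and miR-133a-3p, defining miRNAs of striated muscle, were not detected, and miR-206-3p was detected in males of 21 weeks and not in those of 104 weeks. miR-133b-3p of the same list was detected on every array of 21 and 104 weeks and was not called in these comparisons. Its log2 means at 104 weeks were -3.27 in males and -3.32 in females. The part of these cell types in the changes of miR-146a-5p and miR-146b-5p was not tested.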

How the data were processed

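Total RNA of each ground kidney was hybridised to 1 single-colour miRNA array per animal, and the 74 animals were independent. The deposited scanner files hold intensities that the authors extracted with Agilent Feature Extraction 10.7.3.1: background-subtracted spot signals, summed over a miRNA's probes to a total signal. The software writes 0.1 for an undetected miRNA. A deposited value table holds ratios: the authors raised undetected signals to the lowest detected one and divided each array by its 75th percentile. Its column names did not match the samples, so it was used for no test.

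Here each total signal was divided by its array's 75th percentile over the 311 miRNAs that any array detected. Undetected values were set to a floor of -5.87 in log2, the lowest detected signal over the lowest percentile. Differences in log2 were tested with limma 3.58.1 (statmod 1.5.0, R 4.3.3), in 1 fit over 16 groups with 58 residual degrees of freedom, with Benjamini-Hochberg adjustment over all 311. Ratios and single probes were tested with exact permutation tests and correlations with 100000 permutations within groups, all two-sided, in Python 3.11.15 (numpy 2.4.6, scipy 1.17.1). The limma script was tested on simulated data. The number of arrays limits the precision.

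Named were all arms of the family, miR-223-3p, the members of the inflammation and cell type lists, and the 3 miRNAs most like each arm. The members and lists were chosen with earlier results of these data known. Alternatives were the floor, the percentile, quantile normalization, normexp background correction, the detection filter, the fold threshold, slide or replicate number as a block, young or older ages only, the tests of the study's methods, and each array left out. normexp without its offset, correlations without old males, and single probes were added after the data were seen. miR-155 was not analysed here.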

Additional observations from a re-analysis of the deposited data

Results flagged for a closer look

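Among the animals, 2 of 48 groups of 4 or 5 held a value far from the others, and chance alone gives about 1 in 20 groups. miR-146b-5p was 0.190 in replicate 4 of the 2-week females, against 0.173 to 0.175 in the other 3. miR-223-3p was 1.14 in replicate 2 of the 5-week males, against 1.28 to 1.34 in the other 4.

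The age profiles of males and females differed by limma's test of the age by sex interaction, with adjusted p of 0.00180 for miR-146a-5p, 5.04e-07 for miR-146b-5p and 5.04e-08 for miR-223-3p.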

How the results depend on the processing

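The late rise of miR-146b-5p in males and its sex difference at 104 weeks kept their direction under every alternative, and lost the call only with normexp background correction. The difference at 104 weeks was then 0.38, or 0.77 without the offset, and the rise from 21 to 104 weeks 0.51, and the cause was not tested. Of 187 values that answer a comparison under settings other than leaving out an array, 163 kept direction and call. For miR-146a-5p, with no fold threshold, the sex difference at 104 weeks (0.23) and the changes from 21 to 104 weeks in females (0.30) and males (0.28) were called, and the male change also with the percentile of the miRNAs that every array detected (0.59). Adjusted p of the age effect became 0.128 for miR-146a-5p in females under normexp without offset, and under normexp 0.621 for miR-146b-5p in females (0.612 without offset) and 1.39e-04 in males. Over 15 to 104 weeks alone the age effect had 5.40e-04 in females and 0.00795 in males for miR-146a-5p and 0.00647 in females for miR-146b-5p, without a pair of ages past the fold, and over 2 to 8 weeks alone 0.0568 in males for miR-146b-5p. The interaction of miR-146a-5p had 0.0887 with the percentile over the whole design, 0.692 under normexp, 0.782 without its offset, 0.454 over 2 to 8 weeks and 0.282 over 15 to 104 weeks, and that of miR-146b-5p 0.358 under normexp. The correlation of miR-146a-5p with miR-223-3p was 0.25 without the 2 farthest arrays and 0.20 without old males, and that between the arms 0.26 without the 2 farthest. Slide as a fixed block could not be fitted for the age effect in males.

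Small sex differences changed sign. For miR-146a-5p this was so at 2 weeks under normexp (0.14, and 0.16 without offset), at 5 weeks under quantile normalization (0.00035), at 6 weeks with the percentile over miRNAs always detected (-0.092) or over the design (-0.022), quantile (-0.066) and normexp (-0.024, and -0.012), and at 8 weeks with miRNAs always detected (-0.073) and quantile (-0.13). For miR-146b-5p it was so at 2 weeks with miRNAs always detected (-0.15), normexp (-0.28, and -0.40), and slide as a fixed (-0.014) or random block (-0.00092), at 5 weeks with the percentile over the design (-0.046), normexp (-0.084), slide fixed (-0.0073) or random (-0.0039), at 6 weeks under normexp (0.027, and 0.077), at 15 weeks over the design (0.016) and at 21 weeks with miRNAs always detected (-0.027). Its change from 2 to 8 weeks in males was -0.0080 under normexp without offset. These settings moved the median of all expressed miRNAs as well, by -0.12 at 2 weeks for miRNAs always detected, by 0.14 at 15 weeks over the design, by -0.32 at 2 weeks under normexp and by -0.70 at 8 weeks without its offset.

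With 1 animal left out at a time, the age effects and interactions, the sex differences at 104 weeks and the changes from 21 to 104 weeks of both arms kept their calls. Calls did change for miR-146b-5p from 2 to 8 weeks in females, from 21 to 78 and 78 to 104 weeks in males and between the sexes at 78 weeks, and for miR-223-3p between the sexes at 78 weeks, with the values beside those results. Ranges across sign changes were -0.053 to 0.034 at 6, -0.019 to 0.027 at 8 and -0.00073 to 0.052 at 15 weeks for miR-146a-5p, and -0.018 to 0.044 at 2 and -0.028 to 0.013 at 5 weeks for miR-146b-5p. The log2 ratio of miR-146a-5p to miR-223-3p ranged from -0.75 to -0.67 between the sexes at 104 weeks, and from -0.12 to -0.10 in females and -0.73 to -0.64 in males over age. That of miR-146b-5p to miR-223-3p ranged from -0.27 to -0.14 at 78 and -0.053 to 0.097 at 104 weeks, and from -0.070 to 0.0099 in females and 0.18 to 0.33 in males over age. Its lowest exact permutation p was 0.00794 at 78 weeks and 0.0179 over age in males, where all animals gave p over 0.05. That of miR-146b-5p to miR-146a-5p ranged from 0.18 to 0.52 at 78 and 0.63 to 0.85 at 104 weeks, and from 0.84 to 1.06 over age in males. At 78 weeks its lowest exact permutation p was 0.00794, where all animals gave p over 0.05. With 4 against 4 animals the smallest exact permutation p is 0.0286, and none of those passed after adjustment.

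Replicate numbers did not pair animals: same-numbered males and females of an age deviated with a mean r of -0.05 (28 pairs), others of 0.01 (143 pairs). With the replicate block miR-146b-5p had 0.93 at 104 weeks and 1.18 over age in males, miR-146a-5p 0.24 at 104 weeks, and the difference of miR-146b-5p at 5 weeks was -0.0051; no call changed.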
